A study of Mus musculus with 8 samples.

Results

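Mitochondria in a cell join and divide continually, and the genes described here encode the machinery that does so. The set held 10 genes, named by symbol: Mfn1, Mfn2, Opa1, Oma1, Yme1l1, Dnm1l, Fis1, Mff, Mief1 and Mief2. It was chosen with earlier results of these data known. All 10 had a probe set on the array that named no other gene, out of 19938 genes measured in this way, and each was read by exactly 1 such probe set. Expression was measured in livers of male littermates 8 weeks old. In 4 samples Hmgb1, the gene of an abundant DNA-binding chromatin protein, had been deleted by Cre recombinase under the albumin promoter, which is active in hepatocytes. The 4 control samples came from mice with floxed Hmgb1 alleles, and Cre is named only in the titles of the deleted group, so that an effect of Cre cannot be told apart from one of losing Hmgb1. Nothing in the labels says that each array was a separate animal, so the tests measure the spread between these arrays. The protocols describe whole liver on a C57Bl/6 background after 5 backcrosses, whereas other labels give Balb/c and liver stellate cells. Albumin, made by hepatocytes, read 13.26 to 14.03 on the deleted arrays and 13.95 to 14.01 on the control arrays in log2 intensity. The highest values of any probe set were 13.58 to 14.4 and 14.36 to 14.46. Stellate cell genes gave signal too, such as the enzyme gene Lrat at 8.65 to 8.83 on the deleted and 7.82 to 8.87 on the control arrays. So did Clec4f, a gene of liver macrophages, at 10.06 to 10.17 and 9.97 to 10.09. The arrays therefore carried RNA of several liver cell types, hepatocytes among them, and are read here as whole liver. Signals depend on how probes bind, so they do not give the share of each cell type, and they do not settle the strain. The series asks about autophagy and mitochondrial quality control, to which fusion and fission belong.

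Fusion takes place in steps. The mitofusins MFN1 and MFN2 are GTPases of the outer membrane that tether and merge neighbouring mitochondria, and OPA1, a GTPase of the dynamin family, then merges the inner membranes. The proteases OMA1 and YME1L1 cut OPA1 from long into short forms and so set the balance between fusion and division. Division is carried out by DRP1, the product of Dnm1l, a cytosolic GTPase that forms rings around the organelle and is drawn to the outer membrane by MFF, by the MiD proteins encoded by Mief1 and Mief2, and by FIS1, which yeast needs for fission and which has a lesser part in mammals. In hepatocytes, which are rich in mitochondria, MFN2 is also known for contacts between mitochondria and the endoplasmic reticulum. Much of this machinery is controlled on the protein, by cleavage, phosphorylation and recruitment, which arrays of RNA do not measure.

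The genes are scattered over the genome. In the RefSeq annotation of mouse assembly GRCm38.p6, Mfn1 spans chr3:32529443-32579225 and Mfn2 chr4:147873586-147904909. Oma1 lies on the same chromosome as Mfn2, at chr4:103311875-103371869. Opa1 (chr16:29579281-29663127) and Dnm1l (chr16:16312228-16359038) also share a chromosome. The others are Yme1l1 at chr2:23155442-23199260, Fis1 at chr5:136953275-136966234, Mff at chr1:82724890-82752390, Mief1 at chr15:80233964-80253372 and Mief2 at chr11:60728398-60732951. All 10 probe sets gave a clear signal, which depends on how probes bind as well as on transcript abundance. That of Fis1 was above the signal of 95.5% of the genes measured, that of Mfn2 above 92.5% and that of Mief2, the lowest of the set, above 66.8%.

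The deleted gene and the arrays were checked first. Hmgb1 read 4.91, 4.20, 4.53 and 4.74 on the 4 deleted arrays, against 5.35, 5.42, 5.45 and 5.78 on the 4 controls, with no overlap, and fell by 0.91 on the log2 scale (standard error, SE, 0.14, limma adjusted p = 0.0216), a call lost in 5 alternatives with adjusted p up to 0.0797. Both means, 4.60 and 5.50, lay under the median of all probe set means, 6.14, so that this is the reading of a dim probe set, on which fold changes can be compressed. Hmgb1 and its copies share another 34 probe sets, with a median log2 fold change of −2.15, and 33 of them were lower past the threshold when all probe sets were tested. Array medians ran from 6.08 to 6.18 in the deleted and from 6.12 to 6.22 in the control group, and correlations between arrays from 0.983 to 0.996. Floxed control 1 stood apart from the other 7 arrays. It had the lowest value of all 8 arrays for 6 of the 10 fusion and fission genes and was the farthest from its group's mean for 8 of them. Its deviation averaged −0.22 over the 10 genes relative to each gene's mean, against −0.043 to 0.095 on the deleted arrays and 0.036 to 0.053 on the other controls. A wide deviation on control 1 was not particular to the set, though it was larger there. Over all genes measured, the mean absolute deviation from the group's mean was 0.145 on control 1 and 0.067 to 0.100 on the other 7 arrays. Over the 10 genes it was 0.21 on control 1. The low direction was not that of the whole array, since control 1 had the highest array median, 6.22. Marker lists of cell types, described at the end, averaged from −0.084 (stellate) to 0.146 (neutrophil) on it. The 10 related lists described below averaged −0.195 to −0.029 on control 1, relative to each gene's mean. Log2 fold changes that moved by more than 1.5 times or changed sign without control 1 are followed by their value without that array.

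**Figure D1:**
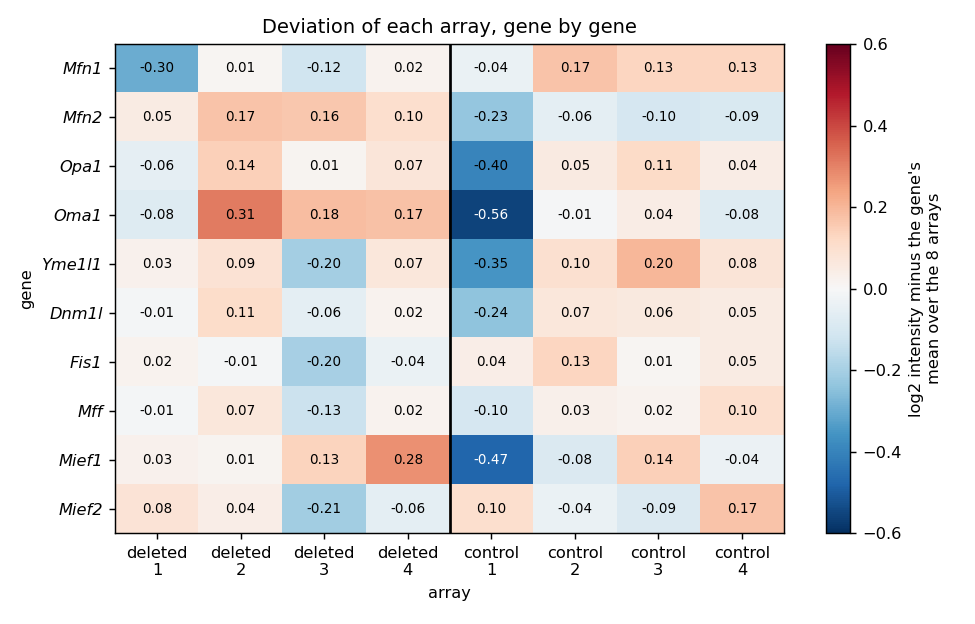
Deviation of each array (columns, Hmgb1 deleted left of the line and floxed control right of it) from the gene's mean over the 8 arrays, in log2 intensity, for the 10 genes (rows). Floxed control 1 is the lowest array for 6 genes, with deviations down to −0.56 for Oma1.

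None of the 10 genes passed the test. With limma and Benjamini-Hochberg adjustment over 19938 genes, 0 of 10 had an adjusted p under 0.05, where 0.692% of all genes did. That share stood for 138 genes, 59 higher and 79 lower in the deleted livers, and it moved with single arrays, being 321 genes without floxed control 1 and 37 without deleted 4, with 67, 53, 82, 71 and 42 without deleted 2, deleted 3, control 2, control 3 and control 4. At an unadjusted p under 0.05 there were 3 of the 10, Mfn1, Mfn2 and Oma1, where 9.46% of all genes reached it. That count was 1, Mfn2 alone, with arrays centred on their medians, without deleted 3 or without control 4. It was 4 after quantile normalization again or with the replicate number as a block. Without control 1 it was 2, Mfn1 and Mfn2, where 14% of all genes reached it. The groups did not overlap for 1 of the 10, Mfn2, where they did not overlap for 5.57% of all genes. Log2 fold changes, deleted minus control, were above 0 for 5 genes and below 0 for 5 (6 and 4 after quantile normalization again or with arrays centred on their medians, and 4 and 6 with array weights), with a median of 0.010 beside 0 over all genes. That split turned on single arrays, being 3 above and 7 below without floxed control 1 (median −0.048), and 7 above and 3 below without deleted 3 or without control 4. All genes leaned the other way in these settings. Without control 1, 10888 were higher and 8990 lower (median 0.012). Without deleted 3 the numbers were 9258 and 10587, and without control 4 they were 9662 and 10197.

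The outer membrane GTPases gave the smallest p-values of the set, with fold changes of opposite sign. Mfn2 read 9.90, 10.02, 10.01 and 9.95 on the deleted arrays, against 9.62, 9.79, 9.75 and 9.76 on the controls. Every deleted array lay above every control, although the nearest values were close, 9.90 on deleted 1 and 9.79 on control 2. Its means were 9.97 ± 0.056 and 9.73 ± 0.075 (SD, n = 4 each), a log2 fold change of 0.24 (SE 0.062, 95% interval 0.10 to 0.38, limma adjusted p = 0.145), or 1.18-fold. By p-value Mfn2 stood at place 379 among all genes. It is the only gene of the set that passed in any alternative tried, with an adjusted p of 0.0289 after quantile normalization was applied again and of 0.0431 with array weights. In the other 15 alternatives its adjusted p lay between 0.0864 and 0.342. Without floxed control 1 its log2 fold change was 0.20 (adjusted p = 0.132).

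Mfn1 read 7.82, 8.13, 8.00 and 8.14 in the deleted group, against 8.08, 8.29, 8.25 and 8.25 in the control group. Here the groups overlapped through control 1, which lay below deleted 2 and deleted 4, while the other controls lay above every deleted array. The means were 8.02 ± 0.15 and 8.22 ± 0.094 (SD, n = 4 each), a log2 fold change of −0.20 (SE 0.083, 95% interval −0.38 to −0.011, limma adjusted p = 0.480). It was −0.24 without control 1 (adjusted p = 0.202) and −0.13 without deleted 1 (adjusted p = 0.640), the array with the lowest value.

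The mitofusins are partners in 1 reaction, and the distance between them can be followed within each array. Mfn2 minus Mfn1 was 2.08, 1.89, 2.01 and 1.81 in log2 intensity on the deleted arrays, against 1.54, 1.5, 1.5 and 1.51 on the control arrays. The controls agreed closely, control 1 included, and every deleted array lay above them. The means were 1.95 ± 0.12 and 1.51 ± 0.019 (SD, n = 4 each), a difference of 0.435. The pair was chosen with the opposite directions known, so no test is attached. The absolute distance depends on how the probes bind. A distance that differs between the groups says neither which of the 2 genes differs nor, without a test, that either does. The difference of the means was 0.44 without control 1 and ran from 0.39 to 0.48 over all alternatives.

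**Figure D2:**
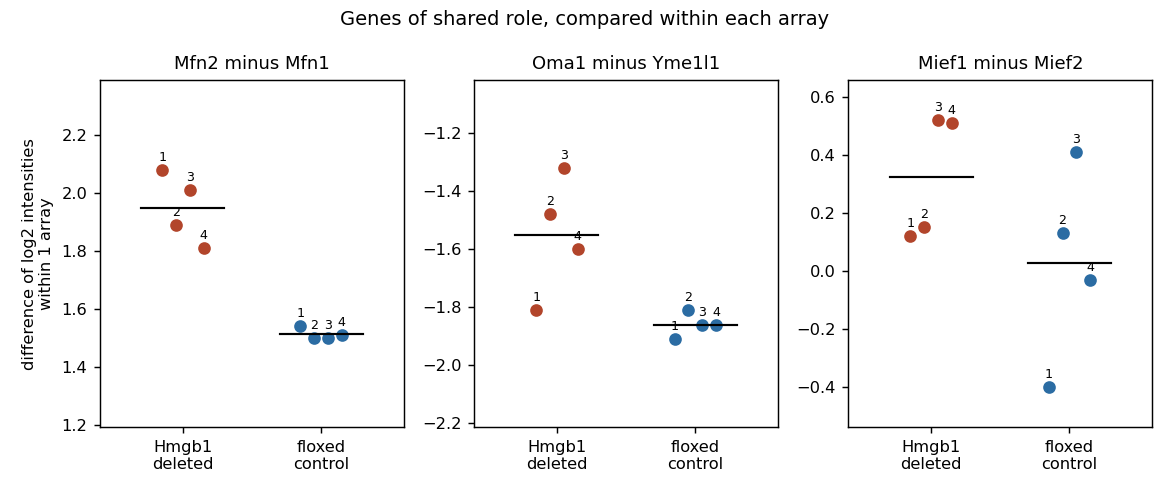
Difference between the log2 intensities of 2 genes of shared role on the same array, for Mfn2 and Mfn1, Oma1 and Yme1l1, and Mief1 and Mief2; points are arrays with their replicate number, Hmgb1 deleted left and floxed control right, and lines are group means. The 4 controls lie within 1.5 to 1.54 for the mitofusins, below all 4 deleted arrays, and the groups of the other pairs touch or overlap.

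Opa1 read 9.37, 9.57, 9.44 and 9.50 on the deleted arrays and 9.03, 9.48, 9.54 and 9.47 on the controls. Apart from control 1, all 7 values fell within 9.37 to 9.57. The log2 fold change was 0.09 (SE 0.11, 95% interval −0.15 to 0.33, limma adjusted p = 0.952), and −0.027 without control 1 (95% interval −0.17 to 0.12, adjusted p = 0.917). It was 0.057 without deleted 2 and 0.14 without control 3. Long and short forms of OPA1 made by cleavage arise from the protein and are not seen here.

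The stress-activated protease OMA1 and the constitutive YME1L1 both cut OPA1. Oma1 read 7.79, 8.18, 8.05 and 8.04 in the deleted group, against 7.31, 7.86, 7.91 and 7.79 in the control group. The groups overlapped, since deleted 1 was level with control 4 and below controls 2 and 3, and control 1 lay far below the rest. The means were 8.02 ± 0.16 and 7.72 ± 0.28 (SD, n = 4 each), a log2 fold change of 0.30 (SE 0.13, 95% interval 0.010 to 0.58, limma adjusted p = 0.501), the widest interval of the 10. Without control 1 it was 0.16 (95% interval −0.032 to 0.36, adjusted p = 0.463).

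Yme1l1 read 9.60, 9.66, 9.37 and 9.64 on the deleted arrays and 9.22, 9.67, 9.77 and 9.65 on the controls, each group holding 1 low array. Its log2 fold change was −0.010 (SE 0.12, 95% interval −0.27 to 0.25, limma adjusted p = 0.996). It was −0.13 without control 1 and 0.056 without deleted 3, the low array of each group, and turned to 0.0045 and 0.010 under the other 2 scalings. Within arrays, Oma1 minus Yme1l1 was −1.81, −1.48, −1.32 and −1.60 in the deleted group and −1.91, −1.81, −1.86 and −1.86 in the control group. Here too the controls were close to each other (SD 0.041), control 1 included, and the deleted arrays more scattered (SD 0.21), with deleted 1 level with control 2. The mean difference between groups was 0.31 (0.29 without control 1), given without a test, since this pair and the next were picked after the values were seen.

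Dnm1l, the fission GTPase, was even across most arrays. It read 9.41, 9.53, 9.36 and 9.44 on the deleted arrays and 9.18, 9.49, 9.48 and 9.47 on the controls. Controls 2 to 4 lay within 9.47 to 9.49, and control 1 was the lowest of all arrays. The log2 fold change was 0.030 (SE 0.081, 95% interval −0.15 to 0.21, limma adjusted p = 0.991). It changed sign without control 1, to −0.045 (95% interval −0.18 to 0.089), and without deleted 2, to −0.0017, and was 0.052 to 0.058 without deleted 3 or any of controls 2 to 4.

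The receptors of DRP1 did not share a direction. Fis1 read 10.53, 10.50, 10.31 and 10.47 in the deleted group, against 10.55, 10.64, 10.52 and 10.56 in the control group. Only deleted 1 reached into the control range. Its log2 fold change was −0.12 (SE 0.066, 95% interval −0.26 to 0.030, limma adjusted p = 0.711), and −0.068 without deleted 3, the lowest array. Mff read 8.95, 9.03, 8.83 and 8.98 on the deleted arrays and 8.86, 8.99, 8.98 and 9.06 on the controls, which overlapped almost fully. Its log2 fold change was −0.025 (SE 0.068, 95% interval −0.17 to 0.12, limma adjusted p = 0.991), and it ran from −0.063 without control 1 to 0.014 without deleted 3.

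Mief1 read 7.69, 7.68, 7.80 and 7.94 in the deleted group, against 7.19, 7.58, 7.81 and 7.63 in the control group. Control 1 was again the lowest array, and control 3 lay above all deleted arrays but deleted 4. The log2 fold change was 0.23 (SE 0.12, 95% interval −0.038 to 0.49, limma adjusted p = 0.655) and 0.10 without control 1 (adjusted p = 0.661). Mief2 read 7.57, 7.53, 7.28 and 7.43 on the deleted arrays and 7.59, 7.45, 7.40 and 7.66 on the controls, where control 1 was not low. Its log2 fold change was −0.073 (SE 0.084, 95% interval −0.26 to 0.11, limma adjusted p = 0.949). It was −0.015 without deleted 3, −0.028 without control 4, −0.112 without deleted 1 and −0.114 without control 3. Within arrays, Mief1 minus Mief2 was 0.12, 0.15, 0.52 and 0.51 in the deleted group and −0.40, 0.13, 0.41 and −0.03 in the control group. These ranges overlapped, with SDs of 0.22 and 0.34, and the means lay 0.30 apart, or 0.155 without control 1.

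**Figure D3:**
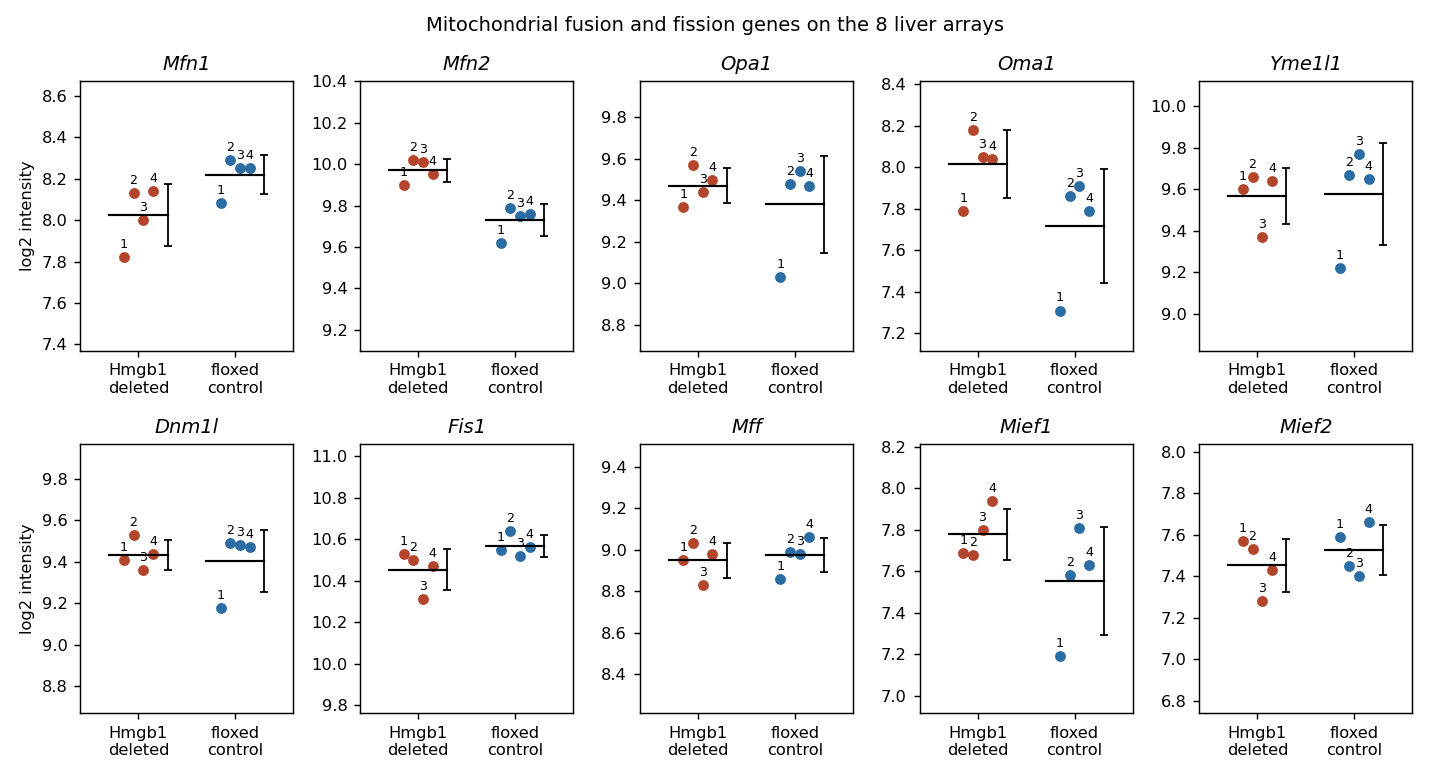
Log2 intensity of the 10 genes on each array; points carry the replicate number, Hmgb1 deleted left and floxed control right, with the group mean (line) and SD (bar, n = 4), and all panels span the same height on the log2 scale. Mfn2 is the gene whose groups do not overlap, at 9.90 to 10.02 in deleted and 9.62 to 9.79 in control livers.

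The intervals bound the differences these arrays leave room for. For all 10 genes the 95% interval lay within 1.5-fold in either direction, as it did for 97.2% of all genes. Oma1 reached that limit, with an upper bound that rounds to 1.5-fold, and lay outside it in 8 of 17 alternatives, as when all probe sets were tested or when deleted 1 was left out. The next widest bounds were 1.40-fold for Mief1 and 1.30-fold for Mfn1 (lower) and Mfn2 (higher). Within 0.32 of 0 on the log2 scale lay the intervals of 5 genes, Yme1l1, Dnm1l, Fis1, Mff and Mief2, a share of 50.0% beside 76.9% of all genes. The bounds nearest to 0 were those of Mff, at most 1.13-fold either way. Spread between arrays differed among the genes more than 3-fold, from a pooled SD of 0.066 for Mfn2, with 13.6% of all genes below it, to 0.23 for Oma1, with 94.6% below it. Differences within a gene's own bounds could not be told from each other with 4 arrays a group.

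**Figure D4:**
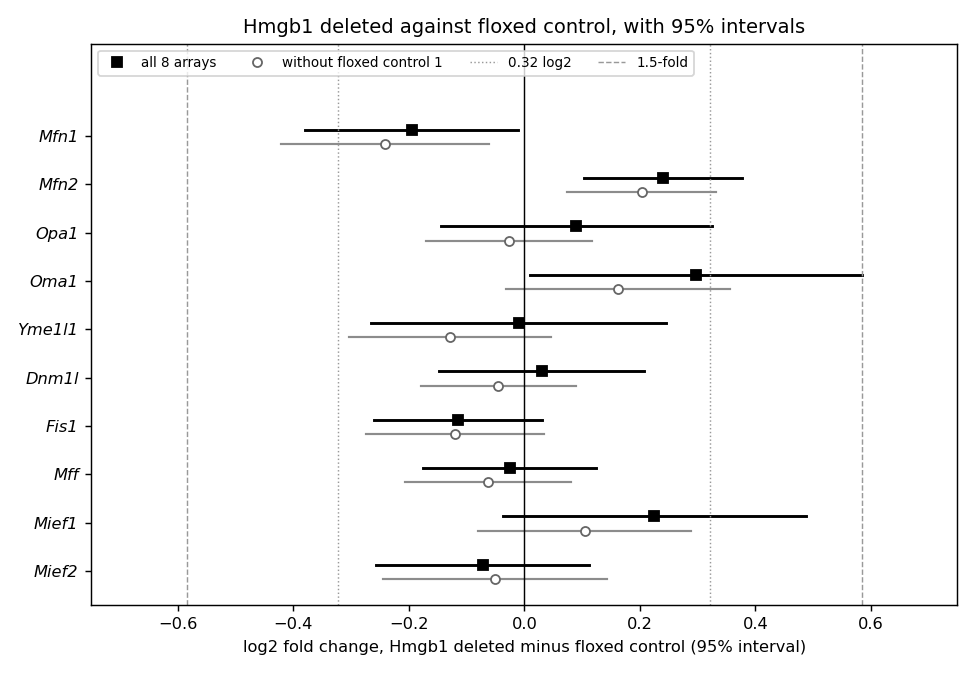
Log2 fold change (Hmgb1 deleted minus floxed control) of each gene with its 95% interval from limma, over all 8 arrays (squares) and without floxed control 1 (circles); dotted lines mark 0.32 on the log2 scale and dashed lines 1.5-fold. All 10 intervals over 8 arrays lie within 1.5-fold, and Opa1 and Dnm1l change sign without control 1.

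Other genes that act on fusion, fission and mitochondrial shape were set beside them, in 10 lists of 91 distinct genes, of which 81 were measured. Of these 37 were higher, 42 lower and 2 equal, with a median log2 fold change of −0.0025. An unadjusted p under 0.05 was reached by 7, or 8.64%, beside 9.46% of all genes. Without control 1 there were 31 higher and 50 lower, with a median of −0.036, where the median over all genes was 0.012. An unadjusted p under 0.05 was then reached by 15, or 18.5%, where 14% of all genes reached it. Only Armcx3 passed the limma test over all genes. Armcx3, an outer membrane protein tied to the transport of mitochondria along neurites, read 6.55, 6.63, 6.86 and 6.84 on the deleted arrays, against 7.18, 7.32, 7.44 and 7.49 on the controls. Every deleted array lay below every control, a fall by 0.64 in log2 (adjusted p = 0.0140, SE 0.093). The call was lost narrowly without deleted 2 (adjusted p = 0.0511), without control 4 (0.0623) and with arrays centred on their medians (0.0508). Of the 7 transport adaptors measured 2 were higher and 5 lower. Leaving out single arrays gave 2 to 4 higher, with 4 higher and 3 lower without control 3 or control 4. The motor adaptors Trak2 and Trak1 had log2 fold changes of 0.165 and 0.09 without passing. That of Trak1 was 0.0067 without deleted 3 and 0.057 without control 1.

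Among 5 helpers of outer membrane fusion, Miga2, a mitoguardin that promotes fusion, read 8.98, 8.85, 9.13 and 8.86 in the deleted group and 8.62, 8.73, 8.76 and 8.65 in the control group. These did not overlap, as with Mfn2, but the log2 fold change of 0.27 did not pass (limma adjusted p = 0.191, SE 0.075). Its relative Miga1 had −0.12 and the outer membrane carrier Mtch2 −0.06, and 4 of the 5 were lower. Mtch2 moved with the controls, to −0.145 without control 1 and to −0.022 and −0.025 without controls 2 and 3, and without control 1 there were 3 lower. The 7 other fission and constriction factors measured included Dnm2, a dynamin, at 0.14, Inf2, a formin of the endoplasmic reticulum, at 0.10 and Gdap1 at −0.063, with 4 higher, 1 lower and 2 equal, or 4 higher and 3 lower without control 1. Inf2 was 0.036 without deleted 3 and 0.064 without control 3, and Gdap1 −0.099 without control 3. DRP1, FIS1 and MFF also divide peroxisomes. Of 4 peroxisome division genes measured 2 were higher and 2 lower, with Pex11a at −0.175, Acbd5 at −0.21 and Vps13d at 0.10. Without control 1 there were 1 higher and 3 lower, with Acbd5 at −0.32 and Vps13d at 0.057, and Acbd5 was −0.11 without deleted 3. Of these 3 lists 0 of 16 measured genes passed in limma and 2, Miga2 and Pex11a, had an unadjusted p under 0.05. Of all genes 9.46% had such a p.

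Enzymes that modify the fusion and fission proteins were higher for 7 and lower for 3 of 10, among them the outer membrane ubiquitin ligase Mul1 at 0.145, the phosphatase Pgam5 at 0.11 and the ubiquitin ligase Huwe1 at 0.06. Without control 1 the split was 6 and 4, Pgam5 was at 0.028 and Huwe1 at 0.015. Inner membrane and matrix proteases and scaffolds split evenly, 4 and 4, with Lonp1 at 0.11, Htra2 at −0.088 and Afg3l2 at −0.065. Without control 1 there were 2 higher and 6 lower, with Lonp1 at 0.063, Htra2 at −0.15 and Afg3l2 at −0.14, and without deleted 1 these read 0.17, −0.028 and −0.038. The cristae organising complex held 6 higher and 4 lower, with Dnajc11 at 0.17, Micos13 at 0.093 and Chchd3 at −0.055. It held 3 higher and 7 lower without control 1, where the 3 genes stood at 0.055, 0.059 and −0.097. Of 7 genes downstream of OMA1 in the stress response 5 were higher and 2 lower, with Dele1, which carries the signal of OMA1 to the cytosol, at 0.18 and the transcription factors Atf4 and Ddit3 at 0.15 and 0.185. Without control 1 they split 4 and 3, with Ddit3 at 0.12, and Dele1 was 0.12 without deleted 3. Of these 4 lists 0 of 35 measured genes passed in limma and 1, Mul1, had an unadjusted p under 0.05, as 9.46% of all genes had.

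The other members of the dynamin superfamily measured were 3 higher and 4 lower (5 and 2 without control 1), 0 of which passed in limma. Mx2 and Gbp3, GTPases induced by interferon, had log2 fold changes of 0.67 (adjusted p = 0.0827) and 0.60 (adjusted p = 0.192), and Mx1 0.12. Mx2 passed in limma without control 3 (adjusted p = 0.0320), and with the replicate number as a block both Mx2 (adjusted p = 0.00472) and Gbp3 (adjusted p = 0.0144) passed. Genes taken as a gauge of mitochondrial content were lower for 13 of 16, with a median of −0.081. Of these 0 passed in limma and 0 reached an unadjusted p under 0.05, where 9.46% of all genes reached it. Of these, the chaperone Hspd1 had −0.15, the respiratory subunit Cox4i1 −0.15 and the import protein Timm44 −0.13. Without control 1 there were 14 lower, with a median of −0.145, and 6 reached an unadjusted p under 0.05, where 14% of all genes did; Timm44 was −0.20. Cox4i1 was −0.085 without deleted 3. Array means of this list, relative to each gene's mean, ran from −0.097 to 0.081 in the deleted and from −0.18 (control 1) to 0.13 in the control group. Whether the content of mitochondria has a part in the values of the fusion and fission genes was not tested.

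**Figure D5:**
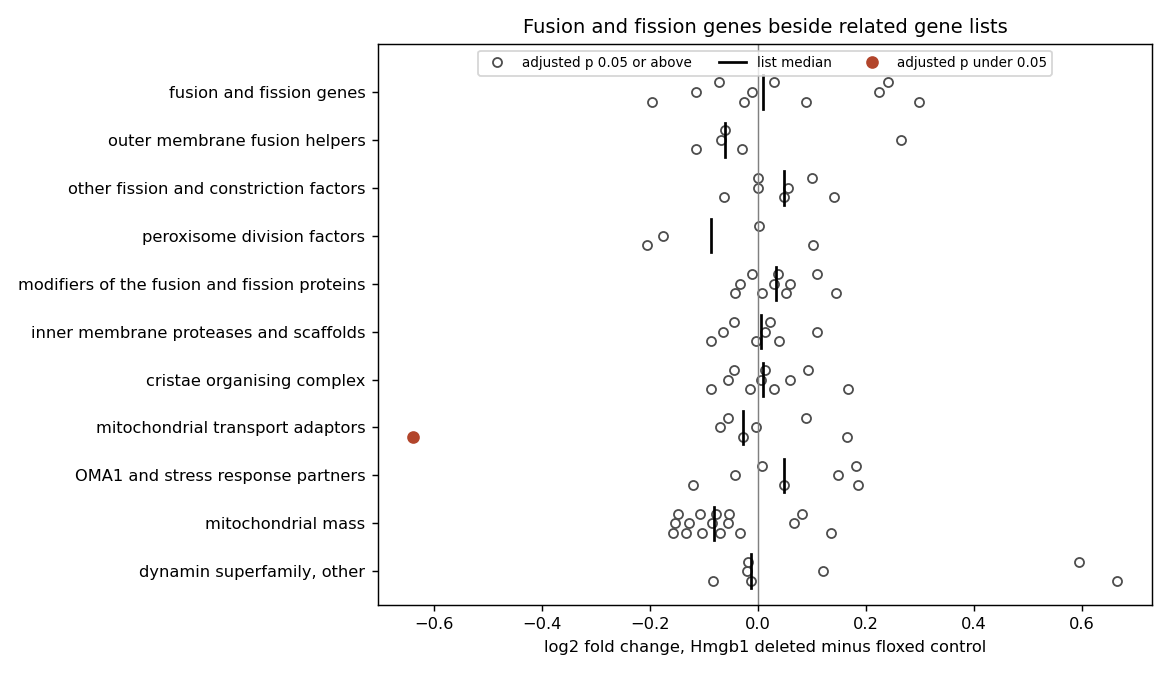
Log2 fold change (Hmgb1 deleted minus floxed control) of the 10 fusion and fission genes and of the measured genes of 10 related lists; each circle is a gene, filled where its limma adjusted p is under 0.05, and bars are list medians. Armcx3, among the transport adaptors at −0.64, is the filled circle.

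Whole liver holds several cell types, and fewer cells of a type cannot be told apart from less RNA per cell. Hepatocyte markers, 10 of 11 measured lower, had array means of −0.33 (deleted 4) to 0.065 in the deleted group and 0.040 to 0.092 in the control group, relative to each gene's mean. Without deleted 4 there were 4 higher and 7 lower, with a median log2 fold change of −0.046, against −0.17 over all 8 arrays. The brightest value of any probe set was 13.58 on deleted 4 and 14.23 to 14.46 on the others. Hepatocyte markers are among the brightest genes, so their low mean on deleted 4 cannot be told apart from a lowered top of that array's scale. Sinusoidal endothelial markers, 10 of 10 lower, had means of −0.19 to −0.081 on the deleted and 0.039 to 0.18 on the control arrays, and their summed intensity was 12.57 to 12.64 and 12.86 to 12.98 on the log2 scale. Of these, the lectin Clec4g, named after its values were seen, fell by 0.61 (SE 0.076, limma adjusted p = 0.00628). Erythroid markers, 4 of 6 measured lower (3 without control 1), ran from −0.17 to −0.064 and from 0.014 to 0.18, with summed intensities of 10.57 to 10.68 and 10.76 to 11.23. Array means of stellate, macrophage, lymphoid and neutrophil markers overlapped between the groups, and those of bile duct markers met at 0.015. Mfn2 is expressed widely, and the part of cell composition in its values was not tested.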

How the data were processed

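RNA of 8 liver samples was hybridised to Affymetrix arrays; per the labels' protocols, 150 ng was amplified and labelled with biotin. The authors ran RMA, per the submitters' processing notes, a method of background correction, normalization between arrays and summary of probes to probe sets, without a stated version. From their range and like medians, the deposited values are log2 intensities. GEO's annotation gave 1 symbol to 21789 of 35556 probe sets, several to 1621 and none to 12146. Each of 19938 genes was represented by its brightest single-symbol probe set, with no filter on dim genes.

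The groups were compared 2-sided and without covariates in R 4.3.3, using lmFit and eBayes of limma 3.58.1, with Benjamini-Hochberg adjustment over all genes and a threshold of 0.05. Intervals are 95% intervals of the moderated fit. The scripts were tested on simulated data. The genes of the set and the lists were chosen with earlier results of these data known. Named beside the set were genes of each related list past the threshold and the 3 with the smallest p. List genes were matched through RefSeq gene IDs (GRCm38.p6): 159 of 177 were measured, 11 had no probe set named here and 7 were found on shared probe sets alone. Alternatives were 9 that kept all arrays (filter on dim genes, all probe sets, mean of probe sets, quantile normalization again, median centring, variance trend, robust prior, array weights, replicate block) and 8 that left out an array. Same-numbered arrays were not taken as pairs in the main fit. Their deviations from the group means correlated at 0.45, 0.065, −0.081 and 0.42 for numbers 1 to 4. These values are mixed and do not settle whether the arrays are paired, so the replicate block is given as an alternative. Arrays give no count of reads; precision rests on the number of arrays. Figures were drawn with Python 3.11.15 and matplotlib 3.10.9.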

Additional observations from a re-analysis of the deposited data

Results flagged for a closer look

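Each group of 4 arrays was searched for a value set apart, meaning that the step from the highest or lowest value to the next passed Dixon's 95% critical value for 4 values, about 0.83 of the group's range. Of 24 groups of 4 values tested, where chance gives about 1 in 20, or 1.2, there were 2, and each was on floxed control 1. Opa1 read 9.03 there, against 9.47 to 9.54 on the other controls, and Dnm1l 9.18, against 9.47 to 9.49. The steps made up 0.86 and 0.94 of the range. Their part in the comparison is given by the values without that array above.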

How the results depend on the processing

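Of the 10 genes, 0 passed in 15 of 17 alternatives and 1, Mfn2, in the other 2 (quantile normalization again, 0.26, and array weights, 0.22 on the log2 scale). Mfn1, Mfn2, Oma1, Fis1, Mief1 and Mief2 kept their direction in all 17. Yme1l1 ran from −0.13 without control 1 to 0.056 without deleted 3 and changed sign in 6, to 0.0045 with quantile normalization again, 0.010 with median centring, 0.056 without deleted 3, and 0.021, 0.054 and 0.014 without controls 2, 3 and 4. Dnm1l changed sign in 3, to −0.016 with array weights, −0.0017 without deleted 2 and −0.045 without control 1, and was at most 0.058 (without control 2). Mff changed sign in 2, to 0.014 without deleted 3 and 0.0042 without control 4, with −0.063 without control 1 as its lowest value, and Opa1 in 1, to −0.027 without control 1, with 0.14 without control 3 as its highest value. The cause was not tested. The median over the 10 genes ran from −0.048 to 0.055 over all alternatives.

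The 138 genes past the threshold became 264 (153 higher, 111 lower) after quantile normalization again, 61 (33 higher, 28 lower) with median centring, 526 with array weights and 325 with the replicate block, and 37 to 321 when an array was left out. With the replicate block 0 of the 10 genes passed, with an adjusted p of 0.0864 for Mfn2; of the 8 arrays 4 correlated best with their own number. Related genes past the threshold were 0 with median centring, 3 with the replicate block (Armcx3, Mx2 and Gbp3) and 0 to 2 when an array was left out. Hmgb1 did not pass in the test of all probe sets (−0.905, adjusted p = 0.0652), nor without control 3, control 4, deleted 3 or deleted 4, with log2 fold changes of −1.01 to −0.77 over the arrays left out, and gave no value after the filter on dim genes. The 30 related genes named kept their direction whichever single array was left out. They were named by their p in these same data, which favours a kept direction. Of all 81 related genes measured, 31 (without control 1) to 43 (without control 3) were higher when an array was left out. Leaving out control 1 moved 14 of the 30 by more than 1.5 times, and each other array 1 to 6.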
